A study of Mus musculus with 6 samples.

Results

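The 10 genes described here belong to the NF-kappaB pathway, measured in cultured mouse neural stem cells: the Rel family subunits Rela, Relb, Nfkb1 and Nfkb2, the inhibitor Nfkbia, the kinase subunits Ikbkb and Ikbkg, the TNF receptor Tnfrsf1a, its adaptor Traf2, and the brake Tnfaip3. They were chosen by name as core components of the pathway, with earlier results of these data known. All 10 were found among the 17006 genes of the deposited tables. The Aged group consists of 3 libraries from C57BL/6 mice of 15 to 18 months, and the Young group of 3 libraries from C57BL/6 mice of 2 months. In both groups primary neural stem cells came from the subventricular zone (SVZ), a neurogenic niche of the adult forebrain, and were kept in proliferation medium before total RNA was extracted. Tissue from 5 mice was pooled for dissociation, so the libraries describe cultures from pooled animals and not the tissue of single mice. Nothing in the labels says that the 3 libraries of a group came from separate cultures, so the p-values measure the spread between these libraries, which may be technical.

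NF-kappaB proteins are dimers of Rel subunits that are held in the cytoplasm by IkappaB proteins. When a receptor such as TNF receptor 1 is engaged, adaptors and ubiquitin chains activate the IkappaB kinase complex, IkappaB is degraded, and the freed dimer enters the nucleus and switches on genes, among them those of its own inhibitors. In the brain the pathway is best known from inflammation in glia, and it has also been studied in the proliferation and differentiation of neural progenitors. Much of its control acts on protein stability and location, which RNA levels do not measure.

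The libraries expressed markers of the labelled cell type. All 12 markers of neural stem and progenitor cells were above a mean of 1 FPKM (fragments scaled for transcript length and sequencing depth, so that genes can be compared), led by Fabp7, Vim and Olig2. Of these 12, 4 were higher and 3 lower in every Aged than in every Young library, where 8.98% and 8.58% of all tested genes were (17.6% in either direction). Of 12 markers of microglia, the resident immune cells that express many NF-kappaB genes, 5 were listed, and only Cd68 reached a mean of 1 FPKM. Their summed level was 3.16 to 3.54 FPKM in Aged and 3.07 to 4.23 FPKM in Young libraries, with Ptprc at 0.04 FPKM or less in each library and Csf1r, Aif1 and Tmem119 not listed. Of 12 markers of endothelium, pericytes and fibroblasts, 10 were listed and 0 reached a mean of 1 FPKM (summed level 1.59 to 1.92 FPKM in Aged and 1.41 to 2.54 FPKM in Young libraries). Among them Flt1 was lower and Col1a2 and Col3a1 were higher in every Aged than in every Young library. Of all genes under a mean of 1 FPKM, 6.71% did not overlap in either direction. Of 10 ependymal and neuronal markers 9 were listed, with a summed level of 24.9 to 31.6 FPKM in Aged and 23.7 to 26.4 FPKM in Young libraries, mostly Foxj1, Tubb3 and Snap25, of which Tubb3 and Snap25 were higher in every Aged library, as was Dcx at a mean under 1 FPKM. Foxj1 and Tubb3, at means of 11.0 and 10.7 FPKM over the 6 libraries, were above the stem cell markers Pax6, Gfap and Prom1 at 8.98, 4.09 and 1.47 FPKM. The part of these marker differences in the results for the pathway was not tested. The smallest steps between low values correspond to an estimated 5270000 to 5340000 reads in Aged and 5430000 to 5480000 reads in Young libraries. The level of a gene in a bulk sample cannot tell fewer expressing cells from less RNA per cell.

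The pathway was expressed in both ages, and none of the 9 members tested passed the threshold for a difference with age. The smallest p-value among the members was that of Nfkb1, at 8.99 ± 0.448 FPKM in Aged and 10.8 ± 0.585 FPKM in Young libraries (SD, n = 3 each). Nfkbia followed, at 13.4 ± 0.967 FPKM in Aged and 15.4 ± 1.26 FPKM in Young libraries. Rela, the main activating subunit, was at similar levels in both, 26.9 ± 1.64 FPKM in Aged and 27.1 ± 0.795 FPKM in Young libraries. Tnfaip3, the gene of the A20 brake, lay under 1 FPKM in every library. Of the 9 members with a mean of at least 1 FPKM, 0 were called by limma at an adjusted p under 0.05, against 0.722% of all 11912 genes tested (86 genes, with 0.327% higher and 0.395% lower in Aged libraries). At an unadjusted p under 0.05 the count was 2 of 9, Nfkb1 and Nfkbia, against 11.9% of all genes, and in both the value was lower in Aged libraries. The median log2 change of the 9 was -0.09 and 8 of the 9 were lower in Aged libraries, where 49.0% of all tested genes were lower and their median was 0.0027. The signs of Rela, Ikbkg and Traf2 turned when single libraries were left out. No test was made of the list as a whole.

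**Figure D1:**
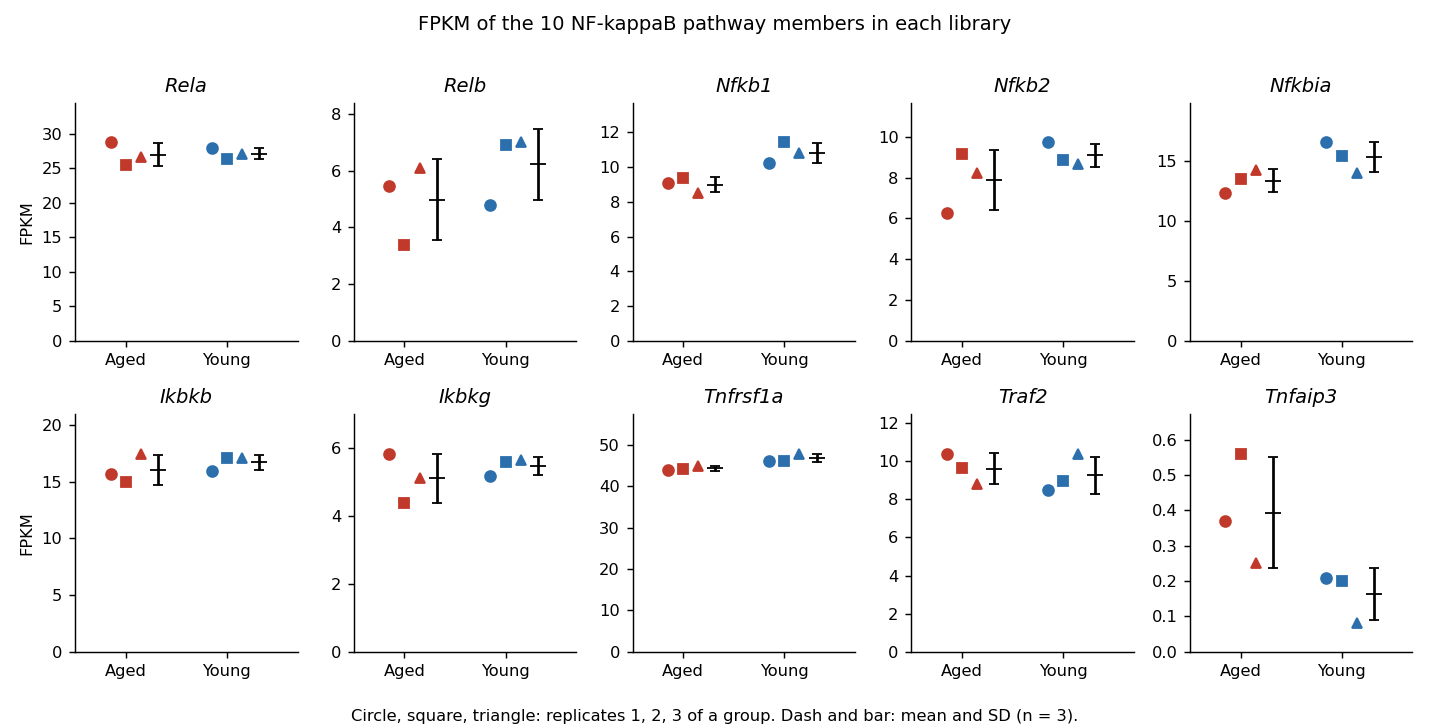
FPKM of each member (vertical axes, each from 0) in the 3 Aged (red) and 3 Young (blue) libraries, with the mean and SD of each group. Nfkb1 and Tnfrsf1a are lower in all Aged than in all Young libraries, Tnfaip3 is higher in all Aged libraries but stays under 1 FPKM, and the values of the other 7 members overlap.

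Gene positions below are those of RefSeq on GRCm38.p6. Among the subunits, Rela encodes the protein with the strongest transactivation domain. Rela (chr19:5637442-5648134) stood at 28.7, 25.5 and 26.6 FPKM in Aged and at 27.8, 26.3 and 27.1 FPKM in Young libraries. The highest and the lowest of the 6 values were both Aged. The log2 change was -0.01 ± 0.06 (SE, limma adjusted p = 0.979). Its 95% interval ran from -8.97% to 8.81% of the Young level, the second narrowest among the members after that of Tnfrsf1a.

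Nfkb1 encodes the precursor that is processed to the DNA-binding partner of Rela. The gene (chr3:135584655-135691969) stood at 9.09, 9.38 and 8.5 FPKM in Aged and at 10.3, 11.4 and 10.8 FPKM in Young libraries. Every Aged value was below every Young value, which 17.6% of all tested genes showed in 1 direction or the other, 8.98% with higher and 8.58% with lower Aged values. The log2 change was -0.24 ± 0.07 (SE), or -15.6% with a 95% interval of -24.5% to -5.56%, and the limma p was 0.00791 unadjusted and 0.219 adjusted over all genes. By p-value, Nfkb1 ranked 430 among the 11912 genes. About 196 reads per Aged and 244 reads per Young library were estimated for it. At the mean of the 6 libraries read sampling alone gives an SD of 6.74%. The observed SD was 4.99% in Aged and 5.40% in Young libraries.

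Nfkb2 and Relb form the dimer of the noncanonical arm, in which the Nfkb2 precursor is cut to its active form after signals such as lymphotoxin or TWEAK. Nfkb2 (chr19:46300994-46312400) stood at 6.25, 9.16 and 8.24 FPKM in Aged and at 9.72, 8.86 and 8.67 FPKM in Young libraries. The first Aged library was the lowest, and the second lay inside the Young range. The log2 change was -0.20 ± 0.12 (SE, limma adjusted p = 0.607), and without that first Aged library it was -0.06. Relb (chr7:19606217-19629438) stood at 5.46, 3.38 and 6.09 FPKM in Aged and at 4.77, 6.89 and 6.99 FPKM in Young libraries. It varied most among the tested members, with an SD of 28.5% of the mean in Aged and 20.2% in Young libraries. About 40 to 84 reads per library were estimated for it, and read sampling at their mean gives 12.2%. Its log2 change of -0.29 ± 0.19 (SE, limma adjusted p = 0.647) had a 95% interval of -39.7% to 11.5%, and without the second Aged library the log2 change was -0.08.

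The inhibitor IkappaB alpha, encoded by Nfkbia, is degraded on stimulation and resynthesised as a direct target of the pathway. Nfkbia (chr12:55489409-55492647) stood at 12.4, 13.5 and 14.3 FPKM in Aged and at 16.6, 15.4 and 14.1 FPKM in Young libraries. The third Aged value, 14.28 FPKM, was above the third Young value, 14.07 FPKM, so the groups overlapped by that pair. The log2 change was -0.18 ± 0.08 (SE), or -12.0% with a 95% interval of -22.3% to -0.381%, with a limma p of 0.0447 unadjusted and 0.408 adjusted.

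Ikbkb encodes the catalytic subunit that phosphorylates IkappaB in the canonical arm, and Ikbkg the regulatory subunit NEMO, which binds ubiquitin chains. Ikbkb (chr8:22659205-22706589) stood at 15.7, 14.9 and 17.5 FPKM in Aged and at 15.95, 17.0 and 17.1 FPKM in Young libraries. Its highest and lowest values were both Aged, and the log2 change was -0.06 ± 0.07 (SE, limma adjusted p = 0.819). Ikbkg (chrX:74393233-74456792) stood at 5.84, 4.39 and 5.13 FPKM in Aged and at 5.18, 5.61 and 5.64 FPKM in Young libraries. Here too the extremes were both Aged, with a log2 change of -0.09 ± 0.10 (SE, limma adjusted p = 0.817), and the value was 0.00046 without the second Aged library. Ikbkg has 7 transcripts in the deposited tables, and the length its FPKM was scaled by is not given in the sources used here.

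Tnfrsf1a, the receptor through which soluble TNF acts on most cells, was the most abundant member. The gene (chr6:125349723-125362483) stood at 43.9, 44.1 and 44.9 FPKM in Aged and at 46.1, 46.1 and 47.8 FPKM in Young libraries. The groups did not overlap, which made 2 of the 9 tested members with Nfkb1, both lower in Aged libraries, against 17.6% of all tested genes in either direction and 8.58% in this one. The difference of Tnfrsf1a had a log2 change of -0.07 ± 0.04 (SE), or -5.03% with a 95% interval of -10.7% to 1.02% (limma adjusted p = 0.517). Traf2, the ubiquitin ligase adaptor recruited to that receptor (chr2:25517982-25546940), stood at 10.4, 9.65 and 8.79 FPKM in Aged and at 8.47, 8.94 and 10.4 FPKM in Young libraries. The values of the groups were interleaved, and Traf2 was the tested member with a higher mean in Aged libraries (log2 change 0.05 ± 0.09, SE, limma adjusted p = 0.893), a direction that turned without the first Aged library (-0.0021).

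Tnfaip3 encodes A20, a ubiquitin-editing enzyme that ends signalling from the TNF receptor and is among the genes that NF-kappaB induces most readily. The gene (chr10:19000910-19015410) stood at 0.37, 0.56 and 0.25 FPKM in Aged and at 0.21, 0.2 and 0.08 FPKM in Young libraries. Each Aged value was above each Young value, which 3.87% of the 5094 genes under a mean of 1 FPKM showed in this direction (2.85% in the other and 6.71% in either). These levels rest on about 9.13 estimated reads per Aged and 3.90 per Young library. At the mean of the 6 libraries read sampling alone gives an SD of 39.2%, and it gives more at the lower Young number. Tnfaip3 was below the filter of the test. In a fit with no filter its log2 change on the FPKM + 1 scale was 0.26, with a limma p of 0.0362 unadjusted and 0.451 adjusted. Of all 17006 genes in that fit, 10% had an unadjusted p under 0.05.

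Ordered by mean over the 6 libraries, the members ran from Tnfrsf1a (45.5 FPKM) over Rela (27.0), Ikbkb (16.4), Nfkbia (14.4), Nfkb1 (9.91), Traf2 (9.43), Nfkb2 (8.48), Relb (5.597) and Ikbkg (5.30) to Tnfaip3 (0.278 FPKM). The ranges of neighbours over the 6 libraries were apart for Tnfrsf1a and Rela, for Rela and Ikbkb, for Nfkbia and Nfkb1, and for Ikbkg and Tnfaip3. The ranges of the other 5 pairs of neighbours overlapped. Within libraries, Nfkb2 was nevertheless above Relb in 6 of 6, and Ikbkb above Nfkbia and Traf2 above Nfkb2 in 5 of 6. Nfkb1 was above Traf2 in 3 of 6 libraries, as was Relb above Ikbkg.

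The makeup of the Rel family is given as a description of these libraries. With the fifth subunit, Rel (c-Rel, below the filter), at 0.65 to 1.00 FPKM in Aged and 0.85 to 1.34 FPKM in Young libraries, the summed level of the 5 subunits was 48.3 to 50.5 FPKM in Aged and 53.9 to 54.4 FPKM in Young libraries. Rela gave 54.2% ± 2.6 of that sum in Aged and 49.9% ± 1.69 in Young libraries (SD, n = 3 each). Nfkb1 gave 18.1% ± 1.28 in Aged and 19.97% ± 0.993 in Young libraries, and Relb 9.98% ± 2.65 and 11.5% ± 2.26. The ranges of the sum and of the Rela share did not overlap between the ages, and those of the Nfkb1, Nfkb2 and Relb shares did. Among the 3 classical IkappaB genes, Nfkbia gave 46.0% to 49.0% of the summed level in Aged and 50.3% to 55.3% in Young libraries. These quantities restate the single values above and were not tested.

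**Figure D2:**
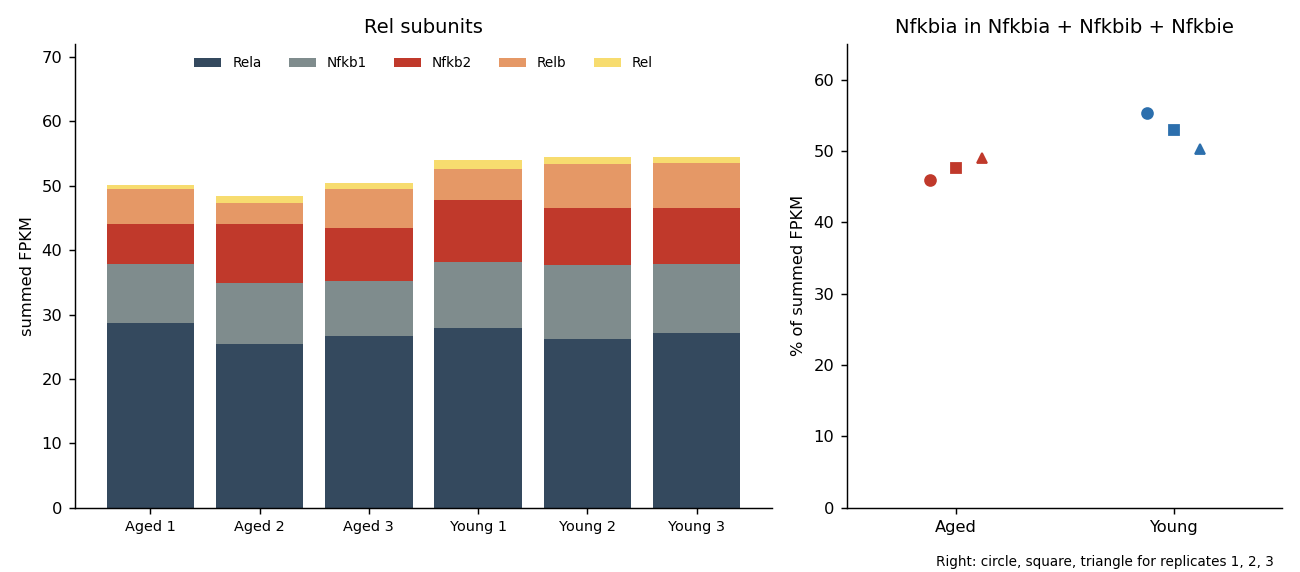
Left, FPKM of the 5 Rel subunits stacked by library (summed FPKM from 0). Right, Nfkbia as a percentage of the summed FPKM of Nfkbia, Nfkbib and Nfkbie, 1 point per library. The stacks reach 48.3 to 50.5 FPKM in Aged and 53.9 to 54.4 FPKM in Young libraries with a Rela segment of like height, and the Nfkbia share is 46.0% to 49.0% in Aged and 50.3% to 55.3% in Young libraries.

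Several members are themselves textbook targets of NF-kappaB, so the sequence before their starts is shown for the 3 members that hold the binding motif there. RefSeq promoter windows of GRCm38.p6 (the assembly also called mm10) were found for 7 of the 10 members, while Relb, Nfkb1 and Ikbkb had none. The 250 bases before each start in the window table were searched on both strands for the kappaB consensus, a motif of 10 bases. It occurred before 1 or more starts of Nfkbia, Nfkb2 and Tnfaip3, and in none of the windows of Rela, Ikbkg, Tnfrsf1a and Traf2. Of all 32851 windows 7.25% held a match, and of the windows of listed genes 8.91%, against 5 of the 13 member windows (38.5%). Nfkb2 alone gave 3 of these 5 windows, some of which overlap, so the windows are not independent. By gene, 3 of the 7 members with a window held a match, against 1398 of 13252 listed genes (10.55%). Because the members were chosen by name and include known targets, these shares are a description and were not tested. In the sequences below, 5′ to 3′ on the strand of the gene and ending at the base before the start, capitals mark the bases of matches on either strand.
Nfkbia, chr12:55492648-55492897, minus strand: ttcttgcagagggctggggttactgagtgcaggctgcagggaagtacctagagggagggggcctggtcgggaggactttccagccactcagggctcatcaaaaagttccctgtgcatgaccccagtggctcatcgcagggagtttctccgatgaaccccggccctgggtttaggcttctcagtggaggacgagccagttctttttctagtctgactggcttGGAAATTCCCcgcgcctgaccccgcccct
Nfkb2, most upstream of its 3 windows, chr19:46304487-46304736, plus strand: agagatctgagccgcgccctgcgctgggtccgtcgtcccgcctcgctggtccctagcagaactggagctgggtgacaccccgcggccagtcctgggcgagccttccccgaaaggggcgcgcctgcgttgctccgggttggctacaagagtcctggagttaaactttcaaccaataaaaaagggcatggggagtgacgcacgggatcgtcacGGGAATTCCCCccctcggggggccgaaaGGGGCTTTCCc
Tnfaip3, upstream start, chr10:19015411-19015660, minus strand: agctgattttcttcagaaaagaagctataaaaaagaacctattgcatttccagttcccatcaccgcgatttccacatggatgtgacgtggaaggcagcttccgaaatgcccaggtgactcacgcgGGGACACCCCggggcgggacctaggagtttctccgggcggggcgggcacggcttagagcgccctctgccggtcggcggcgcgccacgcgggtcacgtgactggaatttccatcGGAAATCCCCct

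Nfkbia held 1 match, GGAAATTCCC, from 29 to 20 bases before the start. Nfkb2 held 4 overlapping or separate matches on the 2 strands in the most upstream of its 3 windows, which cover GGGAATTCCCC from 39 to 29 bases and GGGGCTTTCC from 11 to 2 bases before the start of that window. This start lies inside the RefSeq gene interval given above, which begins further upstream. GGGAATTCCC is a palindrome and is counted on both strands. The other 2 windows of Nfkb2 held 1 match each, GGAATGTCCC and GGGACTTTCC. Tnfaip3 held GGGACACCCC, which matches on both strands, from 125 to 116 bases and GGAAATCCCC from 12 to 3 bases before its upstream start, and no match before its other start. Of the 3 members with a match, Nfkbia and Nfkb2 had lower means in Aged libraries, with overlapping values, and neither was called. Tnfaip3, below the filter, had a higher mean in Aged libraries. Of the tested genes with a window, those with a match (999) had a median log2 change of 0.0028 and those without (8490) of 0.0025. Lower in Aged libraries were 488 of the 999 and 4163 of the 8490. In the wider pathway lists below, 9 of 13 tested genes with a match and 24 of 45 without were lower. The part of the motif in these changes was not tested. A match describes the letters in these windows and no binding was measured.

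**Figure D3:**
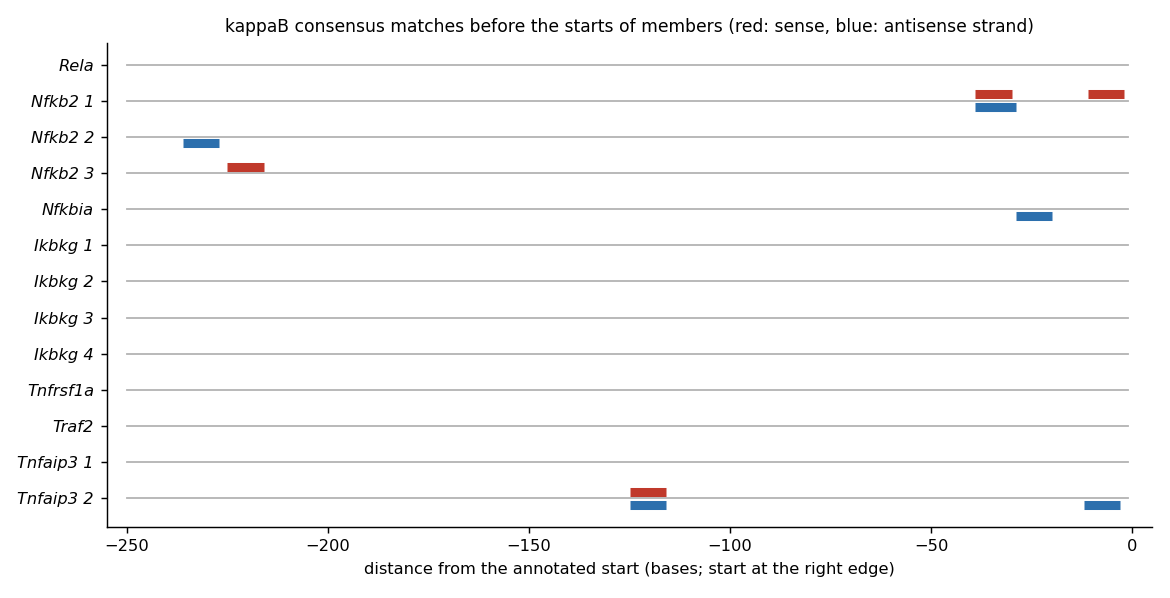
Positions of kappaB consensus matches in the 250 bases before each annotated start of the 7 members with a RefSeq window (horizontal axis, bases before the start; numbers after a name count its starts by coordinate). Matches lie before starts of Nfkb2, Nfkbia and Tnfaip3, on the sense (red) or antisense (blue) strand, and the other windows hold none.

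The wider pathway was followed in 7 lists of 130 genes, of which 113 were listed and 71 reached a mean of 1 FPKM. By limma 0 of the 71 were called at an adjusted p under 0.05 (0.722% of all genes). At an unadjusted p under 0.05, 9 passed, 4 higher and 5 lower in Aged libraries, against 6.3% and 5.55% of all genes. The values of the groups did not overlap in 13 of the 71, 6 higher and 7 lower in Aged libraries. Of all tested genes 17.6% did not overlap, 8.98% higher and 8.58% lower in Aged libraries. The same shares of all genes stand beside the counts by list and the single genes below. The median log2 change was -0.02, and 40 of 71 were lower in Aged libraries.

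**Figure D4:**
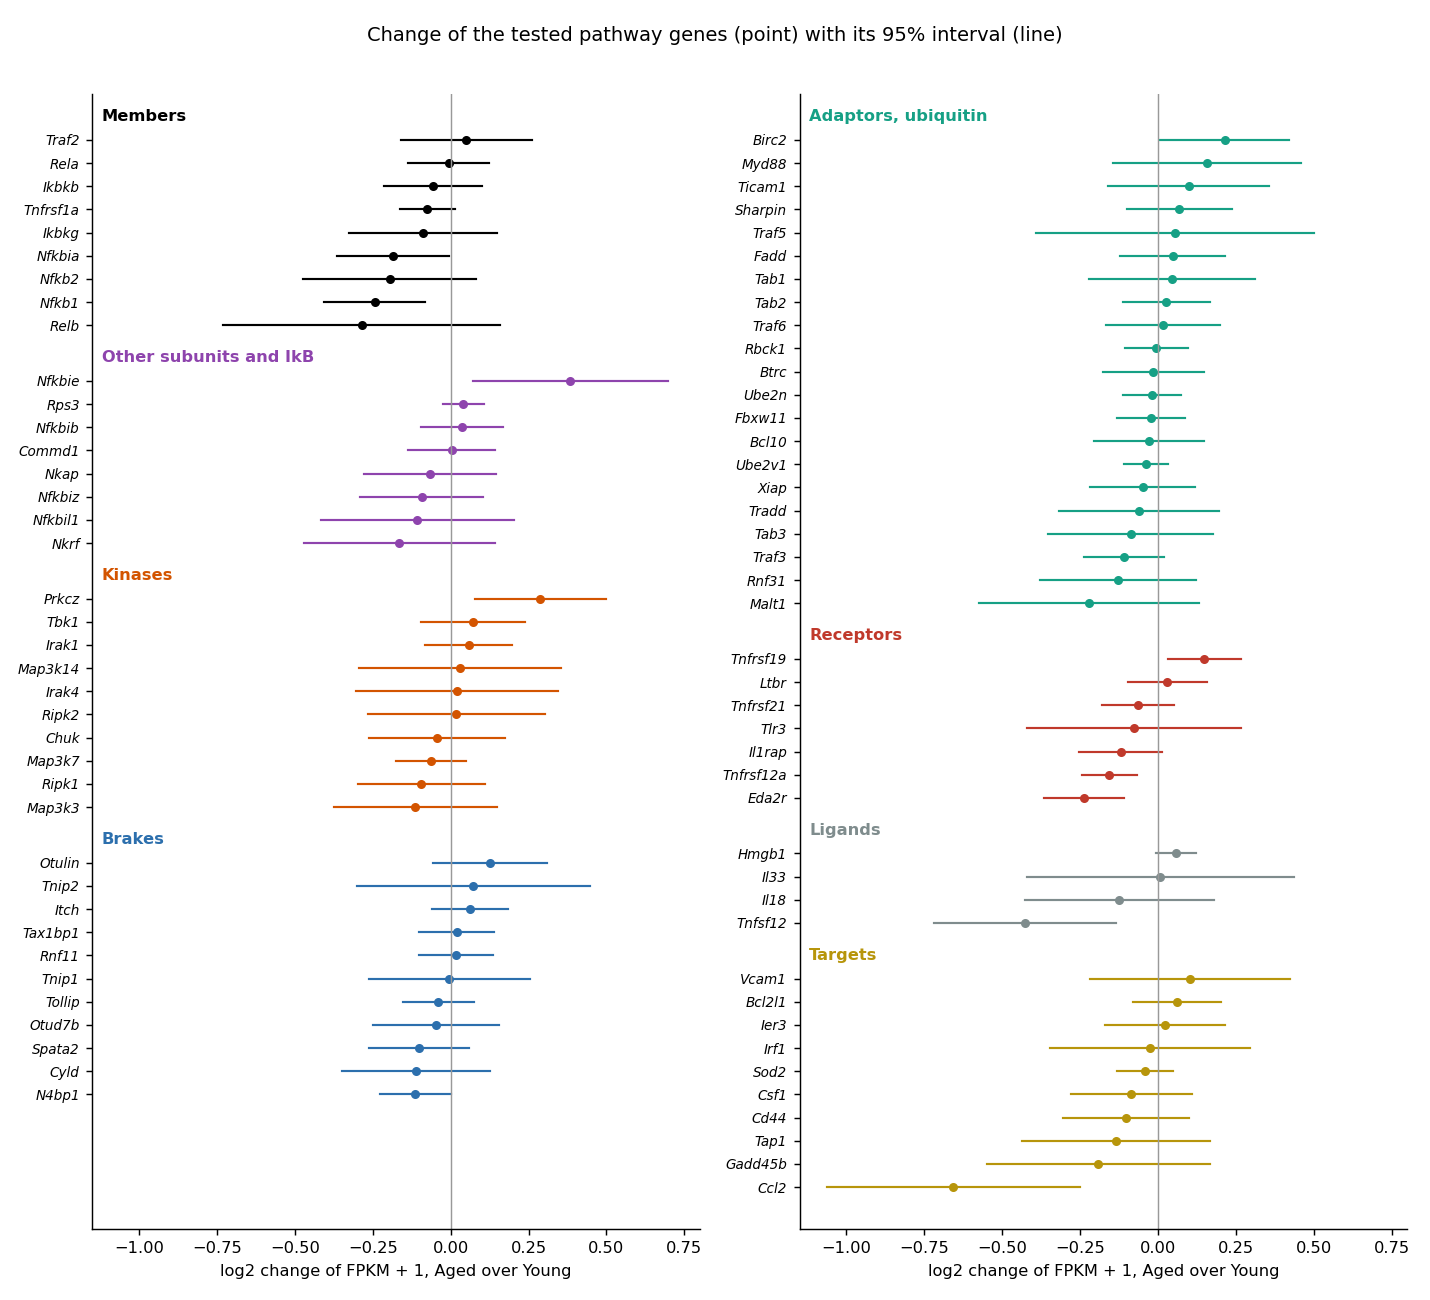
Log2 change of FPKM + 1, Aged over Young (horizontal axes), of the 9 tested members and the 71 tested genes of the wider lists (rows), with 95% intervals that are not adjusted for the number of genes. Ccl2, Tnfsf12, Eda2r, Tnfrsf12a, N4bp1, Nfkb1 and Nfkbia have intervals below 0 and Nfkbie, Prkcz, Birc2 and Tnfrsf19 intervals above 0, and none of the genes shown passed the adjusted threshold.

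Of the remaining subunits and IkappaB proteins, 0 of 8 tested genes were called (1 higher at an unadjusted p under 0.05). Nfkbie, which encodes IkappaB epsilon, stood at 2.23, 2.63 and 2.29 FPKM in Aged and at 1.28, 1.95 and 1.58 FPKM in Young libraries. Its groups did not overlap, in the direction opposite to Nfkbia, with a log2 change of 0.38 ± 0.14 (SE, limma adjusted p = 0.311, unadjusted 0.0217). Nfkbib, the gene of IkappaB beta, was at 12.4 ± 0.182 FPKM in Aged and 12.1 ± 0.306 FPKM in Young libraries (SD, n = 3 each), so it was second to Nfkbia among the classical inhibitors. Commd1, which promotes removal of Rela from chromatin, was at 59.7 and 59.6 FPKM, and Nfkbil1, an IkappaB-like gene, at 7.54 and 8.30 FPKM, in Aged and in Young libraries. Rps3, a ribosomal protein that also joins Rela complexes, was at 429.96 FPKM in Aged and 418.2 FPKM in Young libraries, with pseudogene copies that the authors' counting could have split. Of the atypical nuclear IkappaB genes, Bcl3 and Nfkbid stayed at 0.37 FPKM or less in every library. Nfkbiz, another of them, was at 5.48 to 6.19 FPKM in Aged and 5.71 to 6.49 FPKM in Young libraries (limma adjusted p = 0.753).

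Of the kinases, 0 of 10 tested genes were called (1 higher at an unadjusted p under 0.05). Chuk, the kinase subunit that partners Ikbkb and drives the noncanonical arm, was at 12.5 ± 1.46 FPKM in Aged and 12.9 ± 1.21 FPKM in Young libraries (SD, n = 3 each). The ratio of Ikbkb to Chuk was 1.05 to 1.49 in Aged and 1.18 to 1.48 in Young libraries. Map3k7, the TAK1 kinase upstream of both, was at 21.6 and 22.7 FPKM, Irak1, a kinase of the interleukin and Toll-like receptors, at 28.8 and 27.7 FPKM, and Tbk1 at 9.97 and 9.46 FPKM, in Aged and in Young libraries. Prkcz, an atypical protein kinase C that has been tied to Rela phosphorylation, stood at 4.03, 4.21 and 3.96 FPKM in Aged and at 2.97, 3.25 and 3.23 FPKM in Young libraries. Every Aged value was higher, with a log2 change of 0.29 ± 0.09 (SE, limma adjusted p = 0.258).

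The adaptors and ubiquitin enzymes, 21 tested genes, held 0 calls (1 higher at an unadjusted p under 0.05). Birc2, the cIAP1 ligase that works with Traf2, stood at 7.52, 6.8 and 7.17 FPKM in Aged and at 6.55, 5.34 and 6.27 FPKM in Young libraries, without overlap (log2 change 0.21 ± 0.09, SE, limma adjusted p = 0.405). Its paralog Birc3, an inducible target, was listed at 0 in 5 libraries and at 0.27 FPKM in the third Aged one. The most abundant members of the list were Ube2v1 (153.7 FPKM in Aged and 157.8 FPKM in Young libraries) and Ube2n (50.6 and 51.2 FPKM), which together build the ubiquitin chains that NEMO and its partners read. Fbxw11, which targets phosphorylated IkappaB, was at 33.7 and 34.2 FPKM, and Rbck1 of the linear ubiquitin ligase at 29.6 and 29.7 FPKM, in Aged and in Young libraries.

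The brakes of the pathway, 11 tested genes, held 0 calls (1 lower at an unadjusted p under 0.05). N4bp1, a ubiquitin-binding suppressor, was at 19.0 ± 0.417 FPKM in Aged and 20.7 ± 0.417 FPKM in Young libraries (SD, n = 3 each), without overlap (limma adjusted p = 0.421). The A20-binding adaptor Tax1bp1 was at 39.7 and 39.1 FPKM, its partner Rnf11 at 26.8 and 26.5 FPKM, and Tollip at 32.4 and 33.4 FPKM, in Aged and in Young libraries. Tax1bp1 and Rnf11, partners of A20, were thus far above Tnfaip3 itself in level.

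Receptors held the 2 smallest p-values of the wider lists. Receptors and ligands had 0 of 7 and 0 of 4 tested genes called, in that order. At an unadjusted p under 0.05, 1 receptor was higher and 2 were lower, and 1 ligand was lower. Of all tested genes 6.3% were higher and 5.55% lower at that threshold. Tnfrsf12a, the TWEAK receptor Fn14, stood at 78.0, 76.4 and 81.1 FPKM in Aged and at 89.5, 84.8 and 88.4 FPKM in Young libraries. Tnfsf12, the gene of its ligand TWEAK, stood at 4.01, 4.27 and 4.92 FPKM in Aged and at 6.91, 6.97 and 5.03 FPKM in Young libraries. In both genes every Aged value was lower than every Young value, with log2 changes of -0.16 ± 0.04 (SE, limma adjusted p = 0.151) for the receptor and -0.43 ± 0.13 (SE, limma adjusted p = 0.227) for the ligand. Eda2r, the receptor of ectodysplasin A2, had the smallest p of the 71 genes, at 19.2 ± 0.661 FPKM in Aged and 22.9 ± 1.14 FPKM in Young libraries (SD, n = 3 each, limma adjusted p = 0.135), and Tnfrsf19, also called TROY, was higher in every Aged library, at 23.6 ± 0.28 and 21.2 ± 0.951 FPKM (0.297).

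Tnfrsf21 was at 75.1 and 78.6 FPKM and Ltbr, the lymphotoxin beta receptor, at 31.2 and 30.5 FPKM, in Aged and in Young libraries. The other receptors were scarce: of 24 receptor genes 7 were tested, 15 were listed below a mean of 1 FPKM and 2 were not listed. Tnfrsf1b, the second TNF receptor, was at 0.03 FPKM or less in every library, against 43.9 FPKM or more for Tnfrsf1a. Tnf and Il1b were not among the listed genes, which include none that was at 0 in all 6 libraries, and Il1a, Lta and Ltb stayed at 0.28 FPKM or less. Hmgb1, a chromatin protein that acts as an alarmin outside cells, was at 302.8 FPKM in Aged and 291.1 FPKM in Young libraries. It was higher in every Aged than in every Young library (limma adjusted p = 0.490). Il18 was at 11.8 and 12.9 FPKM and Il33 at 1.15 and 1.12 FPKM, in Aged and in Young libraries. Hmgb1 has pseudogene copies, so its count is uncertain.

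**Figure D5:**
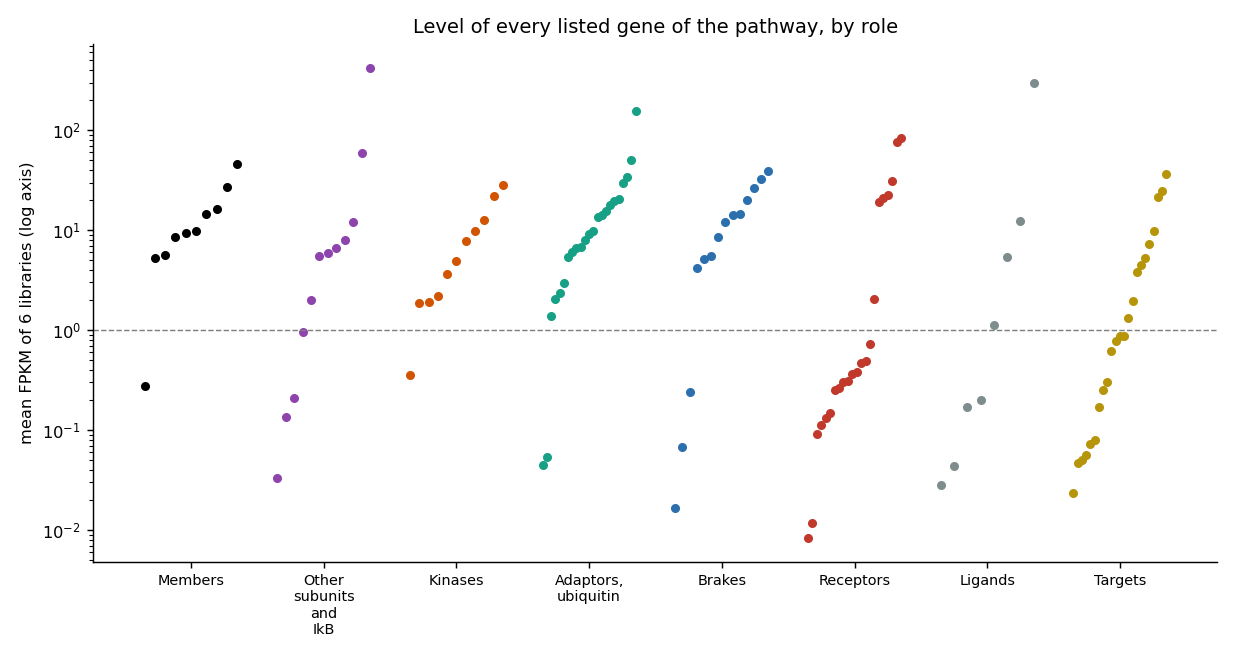
Mean FPKM over the 6 libraries (log axis) of every listed gene by role, sorted within a role, with a dashed line at the 1 FPKM filter. The kinases, adaptors and brakes lie mostly above the line, while 15 of the 22 listed receptors and 13 of the 23 listed targets lie below it.

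Of 33 textbook target genes outside the pathway, 10 were tested, 13 were listed below a mean of 1 FPKM and 10 were not listed, among them Il6, Cxcl1, Cxcl2 and Lcn2. Of the tested targets 0 were called and 1 was lower at an unadjusted p under 0.05, with a median log2 change of -0.06. That gene was Ccl2, a chemokine that attracts monocytes, at 0.95, 0.72 and 0.71 FPKM in Aged and at 1.63, 2.56 and 1.4 FPKM in Young libraries. The groups did not overlap, and the log2 change was -0.66 ± 0.18 (SE, limma adjusted p = 0.182), on about 3.42 estimated reads per Aged and 8.28 per Young library. The antioxidant enzyme Sod2 was at 36.1 ± 0.309 FPKM in Aged and 37.2 ± 0.336 FPKM in Young libraries (SD, n = 3 each). Its groups did not overlap either, with lower Aged values (limma adjusted p = 0.763). The survival gene Bcl2l1 was at 25.2 and 24.1 FPKM, Ier3 at 21.5 and 21.1 FPKM, and the adhesion receptor Cd44 at 9.35 and 10.1 FPKM, in Aged and in Young libraries. The 13 targets below the filter reached at most 1.66 FPKM, in Psmb9 of the immunoproteasome (1.66, 0.24 and 1.66 FPKM in Aged and 0.47, 0.23 and 0.47 FPKM in Young libraries), and Icam1, Nos2 and Ptgs2 stayed at 0.43 FPKM or less.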

How the data were processed

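Total RNA of cultured neural stem cells (1 ug) was depleted of rRNA before library generation with MGI reagents, per the labels' protocols. The authors deposited FPKM for each library as a table of genes, rounded to 2 decimals, per the file headers. The submitters' processing notes name the tools TopHat and Cuffdiff and the build mm10 without version, role or order. Annotation release, strand setting and scaling between libraries are not given in the sources used here. Without a known strand setting, reads of antisense partners cannot be told apart.

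Members, lists and tests were chosen with earlier results of these data known. Genes were joined by Entrez identifier, and 16962 of 17006 were in a RefSeq table of GRCm38.p6. The fit was limma 3.58.1 in R 4.3.3 (lmFit, eBayes with trend, 6 libraries, no covariates) on log2(FPKM + 1) for genes averaging 1 FPKM or more, with two-sided p-values, Benjamini-Hochberg adjusted over 11912 genes, threshold 0.05. Changes of FPKM + 1 understate those of low genes. Percent changes and 95% intervals are on that scale and not adjusted for the number of genes. Depth came from the steps of low single-transcript values: of values at 0.3 to 3.5 estimated reads, 78.1% to 80.2% lay within 0.15 of a whole number, and of those at 3.5 to 10.5 reads, which did not set the step, 52.5% to 60.2%, against 30.0% by chance. Estimated reads use the mean length of the GENCODE transcripts matched to the RefSeq accessions of each gene and are approximate, and their SD covers counting error only. The fit was also run on simulated data with the same extra spread set for every gene. The spread of these libraries differs between genes, so that run does not show the error rate here. Genes named outside the members were, per list, the 4 with the highest mean among those tested and the one with the smallest p. The others named (Rel, Bcl3, Nfkbid, Nfkbiz, Birc3, Tnfrsf1b and the cytokines and targets at low levels) were chosen after their values were seen. Alternatives covered the pseudocount, the filter, 3 scalings, limma options, a replicate block and leaving out each library. Tables and figures were made with matplotlib 3.10.9, numpy 2.4.6 and pandas 2.3.3 in Python 3.11.15.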

Additional observations from a re-analysis of the deposited data

How the results depend on the processing

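Under the 17 alternatives tested 0 members and 0 genes of the wider lists were called, with a smallest adjusted p of 0.193 for a member (Nfkb1) and 0.104 for another named gene. The log2 changes of Nfkb1, Nfkb2, Relb, Nfkbia, Ikbkb and Tnfrsf1a kept their sign throughout. Over all alternatives Nfkb1 ran from -0.28 to -0.18 and Nfkbia from -0.24 to -0.13. The number of all genes called was 86 in the main fit. It was 11 without limma's trend, 22 under a replicate block, 59 with no filter and 39 to 63 with 1 library left out. Under the remaining alternatives it ran from 84 (pseudocount of 5) to 109 (limma's robust option). The labels do not say whether the replicate numbers pair the samples. Deviations of same-numbered libraries from their group means correlated at 0.0080, -0.072 and 0.108, and those of other pairs at -0.109 to 0.111. Not every library correlated best with its own number. Deviations within a group sum to 0, so these values cannot decide whether same-numbered libraries shared a batch. With the replicate block 0 members were called, and 1 of 9 had an unadjusted p under 0.05, against 10.9% of all genes in that fit.

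Tnfaip3, which was below the filter, differed by 0.26 on the log2(FPKM + 1) scale, by 0.90 with a pseudocount of 0.1 and by 0.06 with one of 5, and by 0.17 to 0.33 with 1 library left out. Signs changed in 1 or more alternatives for the genes below. Their log2 changes in the main fit reached -0.11 (Nfkbil1), and the largest value of turned sign was -0.14 (Il33). Rela was 0.0071 with array weights. Commd1 was -0.0068 after quantile normalization, -0.0101 after rescaling to TPM and -9.5e-05 with array weights, and Il33 was -0.00026 after rescaling to TPM. With 1 library left out, Rela ran from -0.052 to 0.031, Ikbkg from -0.17 to 0.00046, Traf2 from -0.00497 to 0.13, Commd1 from -0.051 to 0.0601, Nfkbil1 from -0.22 to 0.048, Chuk from -0.13 to 0.0041, Ube2n from -0.037 to 0.0047, Fbxw11 from -0.052 to 0.012, Rbck1 from -0.018 to 0.011, Tax1bp1 from -0.011 to 0.063, Rnf11 from -0.0093 to 0.049, Ltbr from -0.0095 to 0.0704, Il33 from -0.14 to 0.12 and Ier3 from -0.067 to 0.072. The cause was not tested. With 3 libraries per group, the 95% intervals of the tested members reach 0.09 (Tnfrsf1a) to 0.44 (Relb) to either side on the log2 scale.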

Other observations

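Of the 130 genes of the wider lists, 42 were listed below the filter, and 14 of these were at 0 FPKM in at least 3 libraries. The highest single value among the 42 was 1.66 FPKM. Tlr5, the flagellin receptor, was the only one of the 42 whose groups did not overlap, at 0.4, 0.12 and 0.4 FPKM in Aged and 0.79, 0.56 and 0.57 FPKM in Young libraries, where 6.71% of all genes under the filter did not overlap. The listed endothelial, pericyte and fibroblast markers were all under the filter, and the groups overlapped in all of them except Flt1, Col1a2 and Col3a1. Flt1 was at 0.26 to 0.59 FPKM in Aged and 0.72 to 1.21 FPKM in Young libraries. Col1a2 was at 0.54 to 0.75 FPKM in Aged and 0 to 0.04 FPKM in Young libraries. Col3a1 was at 0.1 to 0.16 FPKM in Aged and 0 to 0.06 FPKM in Young libraries. The neuronal markers Tubb3 (12.1 FPKM in Aged and 9.37 FPKM in Young libraries, limma adjusted p = 0.140) and Snap25 (4.56 and 2.97 FPKM, 0.181) were higher in every Aged library, as was Dcx (0.46 to 0.8 FPKM in Aged and 0.29 to 0.39 FPKM in Young libraries). Their part in the values of the pathway genes was not tested.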
